A study of Mus musculus with 6 samples.

Results

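The genes described here are 10 regulators of the choice between epithelial and mesenchymal character: the splicing factor genes Esrp1 and Esrp2, the zinc finger genes Ovol1 and Ovol2, the zinc finger repressor genes Snai1, Snai2, Zeb1 and Zeb2, and the bHLH factor genes Twist1 and Twist2. They were taken by gene symbol from the array's annotation, and all 10 were measured, by 20 of the 45037 probe sets that are not controls. In all, 18193 genes were tested. The samples were bladder mesenchyme (replicates 1, 2 and 4) and urothelium (replicates 5, 7 and 8) from wild-type FVB/N mouse embryos at day 13 of gestation, Theiler stage 21, with 3 arrays each and no pooling. Both compartments were soaked in 20 µM EDTA, which loosens epithelium by binding divalent cations, and then parted by needle without any cell sorting. Their RNA was amplified in 2 rounds and hybridised to Affymetrix MOE430 arrays. Nothing in the labels ties the arrays of a compartment to separate embryos, and the p-values therefore reflect only how much these samples vary, which may be technical.

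Snail, Zeb and Twist proteins bind short DNA sites called E-boxes, and the Snail and Zeb proteins repress junction genes such as Cdh1 (E-cadherin) through them. Ovol proteins repress Zeb and other mesenchymal genes in epithelial cells of mouse and human, and Zeb factors in turn repress epithelial regulators, so that both sides can hold each other in check. Esrp proteins bind pre-mRNA and direct the epithelial choice of exons in genes such as Fgfr2, Cd44 and Ctnnd1. In the bladder the urothelium comes from endoderm and keeps its epithelial form, while the mesenchyme gives rise to smooth muscle and fibroblasts.

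The deposited signals are linear intensities that share a trimmed mean of 1500 on every array, and the median signal of an array lay between 161 and 240 in mesenchyme and between 132 and 192 in urothelium. The beta-actin ratio (3' over 5' probe set), which rises as amplified RNA shortens, was 8.40 on mesenchyme 1 and 8.60 on urothelium 5, against 2.29 to 4.89 on the other 4 arrays. The compartments matched their labels: 7 of 7 fibroblast markers were higher in mesenchyme and 6 of 7 epithelial markers were higher in urothelium, where the seventh, Krt5, had a log2 difference of −1.87 (adjusted p = 0.0882). Differences are mesenchyme minus urothelium of log2(signal + 45), where the added constant shrinks the differences of dim genes, and are given with the standard error of limma's moderated model. A gene passed the test at a Benjamini-Hochberg adjusted p under 0.05 over all genes. The median gene differed by 0.11, and by −0.08 once arrays were centred on their medians. Fewer cells of a type and less RNA per cell cannot be told apart in these bulk samples.

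Of the 10 genes, 5 were higher in mesenchyme (Snai2, Zeb1, Zeb2, Twist1 and Twist2), where 8.99% of all genes were, and 4 were higher in urothelium (Esrp1, Esrp2, Ovol1 and Ovol2), where 5.75% of all genes were. Snai1 did not pass. The arrays of the compartments did not overlap for 9 of the 10 genes, against 30.2% of all genes. The median size of the log2 difference, whatever its direction, was 3.46 over the 10 genes and 0.43 over all genes. Both counts were the same without mesenchyme 1 and urothelium 5 and without each array in turn.

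**Figure D1:**
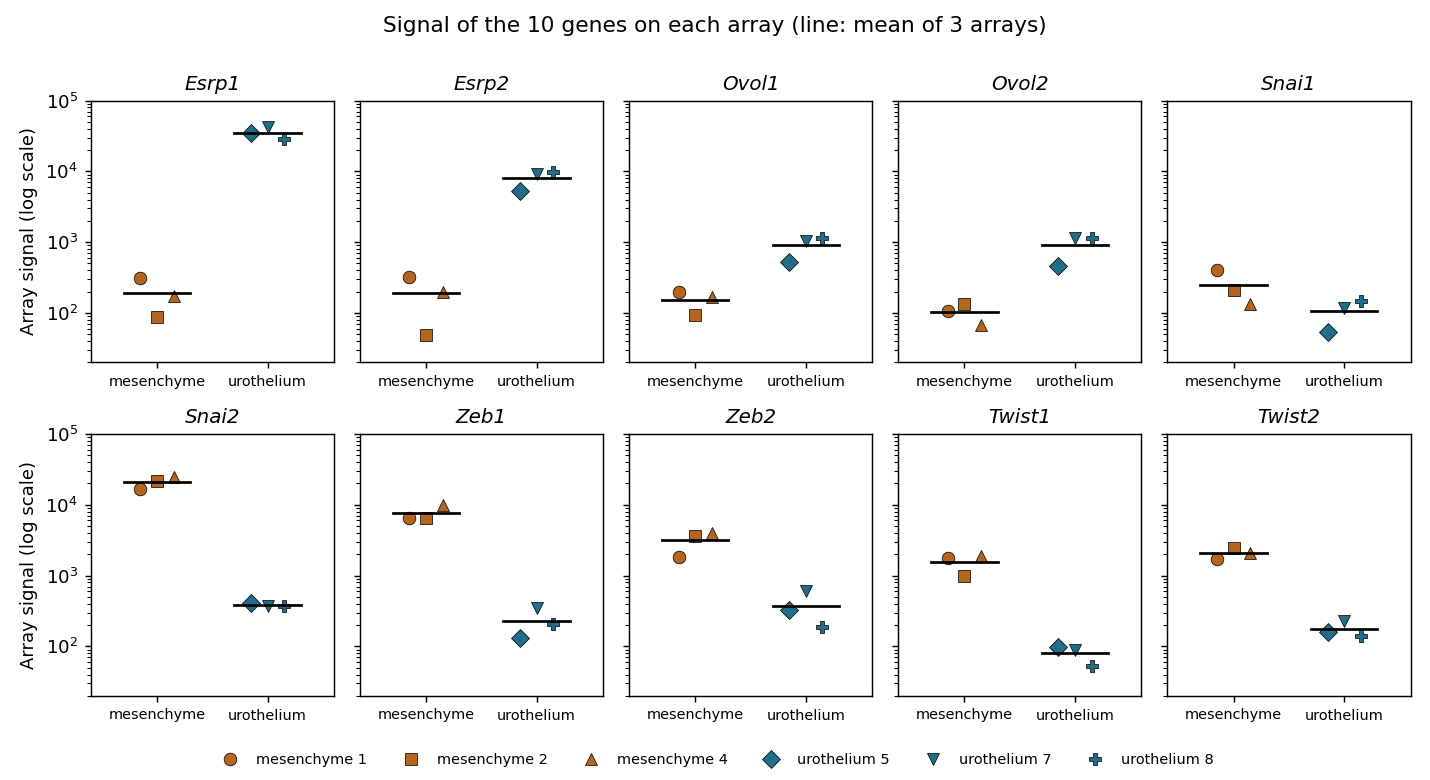
Array signal of each gene on a log scale, with the 3 mesenchyme arrays left and the 3 urothelium arrays right in every panel, 1 symbol per array, and a line at the mean. Esrp1, Esrp2, Ovol1 and Ovol2 sit higher in urothelium, and Snai2, Zeb1, Zeb2, Twist1 and Twist2 sit higher in mesenchyme with no overlap, while the compartments overlap for Snai1.

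Esrp1, an RNA-binding protein that sets epithelial exon choice, had signals of 316, 87.0 and 172.5 on mesenchyme 1, 2 and 4, against 34979, 41994 and 28762 on urothelium 5, 7 and 8. Every urothelium array was far above every mesenchyme array. Means were 192 ± 116 in mesenchyme and 35245 ± 6620 in urothelium (SD, n = 3 each), a log2 difference of −7.32 ± 0.38 (adjusted p = 1.78e-06). By the size of its difference Esrp1 ranked 7 among the 18193 genes, and the mesenchyme mean was 0.544% of the urothelium mean. It has 1 probe set.

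Esrp2, its paralog, which acts on many of the same exons, had 323, 49.6 and 197 on the mesenchyme arrays, against 5317, 9145 and 9893 on the urothelium arrays. The groups did not overlap, and urothelium 5 was the lowest of its group. The log2 difference was −5.28 ± 0.50 (adjusted p = 4.21e-05), and the mesenchyme mean was 2.34% of the urothelium mean. Whether the differences of Esrp1 and Esrp2 are unequal was not tested. A further probe set, 1419977_s_at, had 1659, 231 and 229.7 in mesenchyme, against 998, 1041 and 1099.5 in urothelium. Mesenchyme 1 was there above all urothelium arrays, and the difference of −1.11 ± 0.63 did not pass (adjusted p = 0.426 over probe sets).

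The signals of both Esrp genes in mesenchyme were highest on mesenchyme 1 and lowest on mesenchyme 2. On the log2(signal + 45) scale mesenchyme 1 deviated from the mesenchyme mean by 0.73 and mesenchyme 2 by −0.72 for Esrp1, and by 0.85 and −1.10 for Esrp2. The summed signal of 7 epithelial markers was 10269, 8098 and 10660 on mesenchyme 1, 2 and 4, against 290310, 274633 and 273186 on urothelium 5, 7 and 8. Mesenchyme 2 was thus the lowest for the summed markers too, while mesenchyme 4 was the highest. Single markers varied in their order. Krt18 and Cdh1 had the order of the sum, Epcam had the order of the Esrp genes, and Krt8, Krt19, Krt5 and Trp63 had neither. On mesenchyme 1, 2 and 4 Cdh1 had 223, 108 and 287, Epcam had 3085, 1041 and 1074, and Krt8 had 2889, 3409 and 4233. The part of carried-over epithelium in these low signals was not tested.

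Ovol1, a zinc finger repressor that promotes epithelial differentiation, had 197, 94.8 and 170 on the mesenchyme arrays and 516, 1029 and 1158 on the urothelium arrays. All urothelium arrays were higher, with urothelium 5 the lowest of them. The log2 difference was −2.21 ± 0.46 (adjusted p = 0.00695). A second probe set had 65.0, 66.7 and 48.6 in mesenchyme and 370, 417 and 403 in urothelium, and differed by −2.07 ± 0.43 (adjusted p = 0.0125 over probe sets). Both probe sets of Ovol1 therefore placed it higher in urothelium.

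Ovol2, which in mouse and human cells represses Zeb1 and keeps epithelia from turning mesenchymal, had 106, 133.7 and 67.2 in mesenchyme and 460, 1162 and 1151 in urothelium. Urothelium 5 was again the lowest of its group, yet above every mesenchyme array. The log2 difference was −2.64 ± 0.47 (adjusted p = 0.00299). The mesenchyme means were 17.1% of the urothelium mean for Ovol1 and 11.1% for Ovol2. Without urothelium 5 the log2 differences were −2.55 for Ovol1 and −3.05 for Ovol2.

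Snai2 (Slug), a repressor with a broad role in neural crest and mesenchyme, had 16899, 22024 and 24851 on the mesenchyme arrays, against 404, 366 and 370 on the urothelium arrays. The urothelium arrays were tightly grouped and far below mesenchyme. The log2 difference was 5.63 ± 0.27 (adjusted p = 1.62e-06), and the urothelium mean was 1.79% of the mesenchyme mean. The name of this probe set, 1447643_x_at, marks some of its probes as able to match other transcripts. The other probe set, 1418673_at, had 1661, 2867 and 3560 in mesenchyme and 59.8, 111 and 80.3 in urothelium. It too was higher in mesenchyme, by 4.36 ± 0.41 (adjusted p = 7.90e-05 over probe sets).

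Snai1 (Snail), a direct repressor of Cdh1, had 401, 210 and 134.5 on mesenchyme 1, 2 and 4, against 53.6, 118 and 146 on urothelium 5, 7 and 8. The groups overlapped, since mesenchyme 4 was below urothelium 8. The difference was 0.91 ± 0.47, with a 95% interval of −0.13 to 1.96, and did not pass (adjusted p = 0.272). Over the alternatives its adjusted p lay between 0.209 and 0.709, and the difference fell to 0.28 without mesenchyme 1 and urothelium 5. Mesenchyme 1 was the highest of its group and urothelium 5 the lowest of its group, and these are the arrays with the highest beta-actin ratios. A link between that ratio and the Snai1 signals was not tested. The interval spans no difference and a difference of almost 4-fold, so these arrays do not show whether Snai1 is alike in both compartments.

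Zeb1, a zinc finger and homeodomain repressor of junction and polarity genes, had 6566, 6507 and 9880 in mesenchyme, against 133, 352 and 208 in urothelium. The lowest mesenchyme array was well above the highest urothelium array. The log2 difference was 4.85 ± 0.38 (adjusted p = 1.36e-05). Of its 4 probe sets 2 passed, and the second of these, 1443005_at, differed by 2.05 ± 0.41. The other 2 were dim, with means of 77.2 and 25.4 in mesenchyme and 26.4 and 17.3 in urothelium, and differed by 0.77 ± 0.36 and 0.19 ± 0.26.

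Zeb2, the paralog of Zeb1, had 1837, 3573 and 4029 in mesenchyme, against 328.5, 598 and 191 in urothelium. The compartments did not overlap, and mesenchyme 1 was the lowest of its group. The log2 difference was 2.98 ± 0.46 (adjusted p = 0.00108). Of its 5 probe sets 3 passed, with log2 differences of 2.98, 2.995 and 2.38. The other 2, 1458941_at and 1454200_at, differed by 0.50 ± 0.50 and −0.14 ± 0.50. Averaged over all probe sets, dim ones included, the log2 differences were 1.97 for Zeb1 and 1.74 for Zeb2, and both still passed.

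Zeb2 is known to be expressed in macrophages, endothelium and neural crest. All 7 endothelial markers were higher in mesenchyme, with a summed signal of 15490 to 19383 in mesenchyme and 959 to 1417 in urothelium. Of 7 macrophage markers 5 were higher in mesenchyme, with sums of 6171 to 9736 in mesenchyme and 727 to 962 in urothelium. The neural crest markers Sox10 and Foxd3 had means of 323 and 34.2 in mesenchyme and 374 and 39.5 in urothelium, with log2 differences of −0.18 (adjusted p = 0.875) and −0.05 (adjusted p = 0.948) in limma. The means of Foxd3 are below the added constant of 45. The third measured gene of that list of 5, Erbb3, is also an epithelial receptor gene and was higher in urothelium (−5.10). The part of these 3 kinds of cell in the Zeb2 difference was not tested.

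Twist1, a bHLH factor of embryonic mesenchyme, had 1744, 972 and 1907 in mesenchyme, against 97.8, 88.0 and 52.7 in urothelium. Twist2, its close paralog, had 1723, 2491 and 2081.5 in mesenchyme, against 161, 225 and 139 in urothelium. Neither gene overlapped between the compartments. Log2 differences were 3.63 ± 0.43 for Twist1 (adjusted p = 0.000179) and 3.29 ± 0.37 for Twist2 (adjusted p = 0.000138). The urothelium means were 5.16% and 8.33% of the mesenchyme means. The arrays of mesenchyme were not ordered alike: mesenchyme 2 was the lowest for Twist1 and the highest for Twist2. Each gene has 1 probe set.

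**Figure D2:**
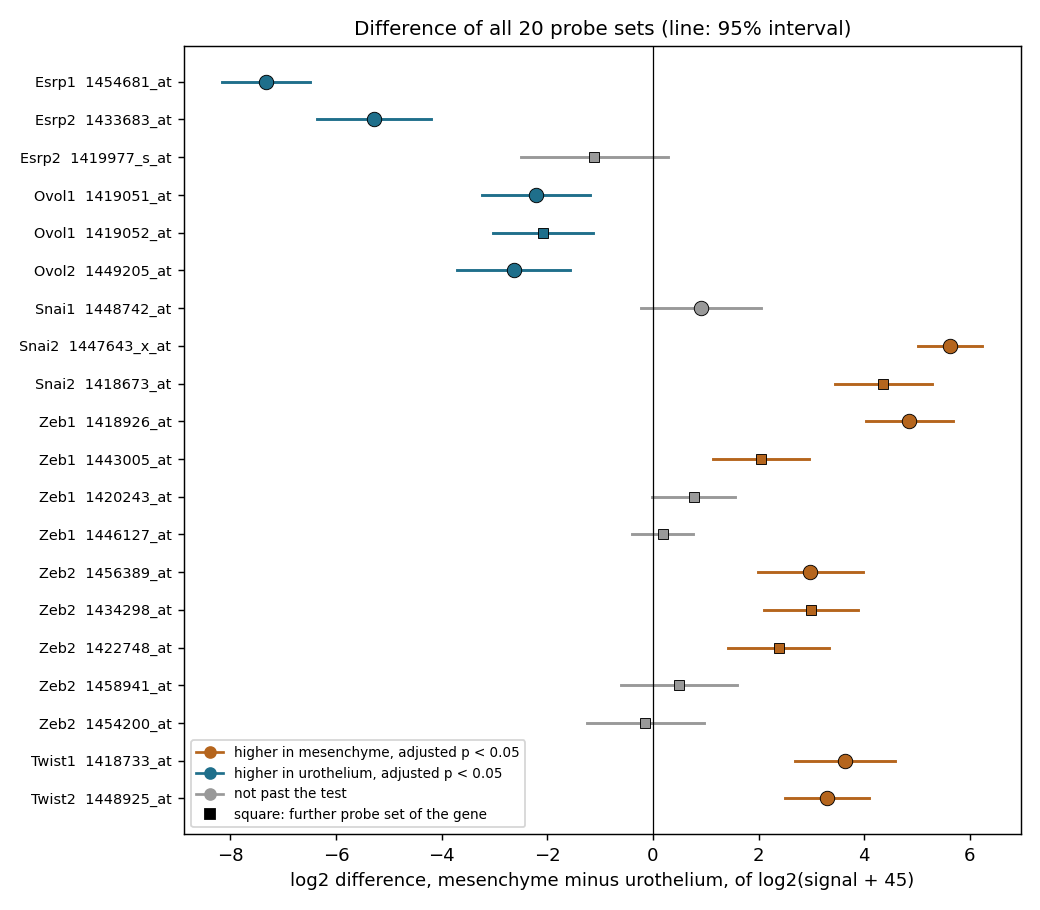
Log2 difference, mesenchyme minus urothelium, of each of the 20 probe sets of the 10 genes, with its 95% interval. Circles mark the brightest probe set of a gene and squares the others, and grey marks the 6 that did not pass over all probe sets.

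Over single probe sets, 9 of the 20 were higher in mesenchyme and 5 in urothelium, against 4.46% and 2.88% of all probe sets. No gene had probe sets past the test in opposite directions. The 6 that did not pass were the only one of Snai1, 1 of Esrp2, 2 of Zeb1 and 2 of Zeb2.

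The genes that these repressors are known to silence were mostly higher in urothelium. Of a list of 15 epithelial genes, 13 were higher in urothelium and 1 in mesenchyme (median −4.47, against 0.11 over all genes; 14.7% of all genes passed in either direction). Cdh1, the E-cadherin gene, had 206 ± 91.2 in mesenchyme and 42106 ± 11436 in urothelium (log2 difference −7.42 ± 0.36). The tight junction gene Cldn7 differed by −5.67 ± 0.30 and the adhesion gene Epcam by −5.28 ± 0.42. The member higher in mesenchyme was the claudin gene Cldn1 (3.05 ± 0.52), named after its value was seen, and its call was lost in the mean of its probe sets. Crb3, a polarity gene, differed by −1.07 ± 0.46 and did not pass (adjusted p = 0.178).

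Promoters of this list and of the 10 genes were searched for the E-box bound by Snail and Zeb proteins, CACCTG on either strand (CAGGTG on the other), in the 250 bases before each annotated start (RefSeq, GRCm38.p6). It stood in 17.2% of 32851 such windows of all genes, some genes having several. Of the 10 epithelial genes with an entry 7 had a match, in 8 of their 15 windows. Those without a match were Dsp, Cldn3 and Cldn1, which differed by −4.51 ± 0.29, −4.92 ± 0.51 and 3.05 ± 0.52. The share of 17.2% is per window and not per gene, and the windows of Crb3 overlap and hold the same matches. These genes were listed as known targets of the repressors, so the count is no independent test. Any E-box (CANNTG) stood in 9 of the 15 windows, against 66.2% of all windows. The windows with more than 1 match follow for 1 start of each gene, to show these letters beside genes that differed between the compartments (Crb3 did not pass), and Snai1, the regulator with a match, comes last. Capitals mark CACCTG or CAGGTG and, in Crb3, also CCGTTA.
Epcam, chr17:87635729-87635978, plus strand: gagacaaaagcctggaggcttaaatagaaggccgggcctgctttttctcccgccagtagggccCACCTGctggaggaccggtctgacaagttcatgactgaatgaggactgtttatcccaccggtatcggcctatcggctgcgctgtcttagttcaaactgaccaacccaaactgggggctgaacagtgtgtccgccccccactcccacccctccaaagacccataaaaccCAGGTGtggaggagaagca
Cldn7, chr11:69965171-69965420, plus strand: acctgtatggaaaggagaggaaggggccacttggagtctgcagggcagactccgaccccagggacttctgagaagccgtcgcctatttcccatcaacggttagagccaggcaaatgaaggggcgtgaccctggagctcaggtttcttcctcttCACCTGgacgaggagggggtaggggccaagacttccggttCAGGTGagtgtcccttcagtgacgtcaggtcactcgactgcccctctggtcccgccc
Ocln, chr13:100552499-100552748, minus strand: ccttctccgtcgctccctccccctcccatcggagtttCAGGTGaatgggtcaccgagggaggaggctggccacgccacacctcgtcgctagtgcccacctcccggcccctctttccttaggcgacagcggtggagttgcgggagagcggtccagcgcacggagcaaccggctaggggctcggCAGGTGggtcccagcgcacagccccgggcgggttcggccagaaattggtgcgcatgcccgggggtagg
Rab25, chr3:88548280-88548529, minus strand: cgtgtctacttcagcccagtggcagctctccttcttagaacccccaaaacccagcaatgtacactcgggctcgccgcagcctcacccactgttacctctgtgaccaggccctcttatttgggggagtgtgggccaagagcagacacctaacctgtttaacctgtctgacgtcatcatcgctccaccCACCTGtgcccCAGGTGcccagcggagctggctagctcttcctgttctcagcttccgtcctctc
Crb3, chr17:57061951-57062200, plus strand: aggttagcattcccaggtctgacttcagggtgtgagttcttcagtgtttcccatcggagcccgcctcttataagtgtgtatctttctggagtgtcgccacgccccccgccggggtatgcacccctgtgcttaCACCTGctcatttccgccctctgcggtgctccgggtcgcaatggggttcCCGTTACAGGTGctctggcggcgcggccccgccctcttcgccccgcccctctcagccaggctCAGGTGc
Snai1, chr2:167537945-167538194, plus strand: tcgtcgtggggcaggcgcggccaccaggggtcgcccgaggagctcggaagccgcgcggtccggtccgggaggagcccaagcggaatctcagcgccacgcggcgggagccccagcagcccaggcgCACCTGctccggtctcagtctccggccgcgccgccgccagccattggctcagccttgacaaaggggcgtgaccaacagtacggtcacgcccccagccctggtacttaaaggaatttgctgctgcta

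The pairs lie 187 and 19 bases before the start in Epcam, 97 and 57 in Cldn7, 213 and 68 in Ocln and 64 and 53 in Rab25, counted to the first base of each match. Ocln, a tight junction gene, differed by −5.22 ± 0.34, and Rab25, a gene of apical vesicle transport, by −4.32 ± 0.47. Crb3 had 3 matches, 118, 63 and 7 bases before the start, and is the gene of the list whose higher signal in urothelium did not pass. The core of the Ovol site, CCGTTA on either strand, stood in 2.2% of all windows, and in Crb3 it lies next to the middle E-box. Of the 10 regulators 5 had an entry (Ovol2, Snai1, Zeb2, Twist1 and Twist2), with 8 windows, of which 1 held CACCTG, in Snai1 126 bases before the start, and 0 held CCGTTA. A match is a run of letters and not a site shown to be bound.

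Of 14 measured genes of the mesenchymal state, 12 were higher in mesenchyme and 0 in urothelium (median 3.79). Over all genes these shares were 8.99% and 5.75%. The mesenchymal cadherin gene Cdh11 differed by 6.14 ± 0.42, the collagen gene Col1a1 by 4.94 ± 0.30 and the matrix protease gene Mmp2 by 4.41 ± 0.31. S100a4 and Itga5 did not pass, at 0.36 ± 0.37 and 0.86 ± 0.49.

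The array reads the amount of a transcript near its 3' end and does not separate the exons that Esrp proteins switch. Of 12 genes with such exons 4 were higher in urothelium and 1 in mesenchyme (median −0.49), against 5.75% and 8.99% of all genes. An unadjusted p under 0.05 was found for 6. That share was not counted over all genes, here or for the lists below. Cd44, the hyaluronan receptor gene, had 641 ± 173 in mesenchyme and 63.0 ± 56.0 in urothelium (2.79 ± 0.51). Numb, an inhibitor of Notch signalling, and Osbpl3, a lipid-binding protein gene, differed by −1.47 ± 0.40 and −1.46 ± 0.28. The others higher in urothelium, named after their values were seen, were Slk (−0.96) and Ralgps2 (−0.96). The count in urothelium was 1 without mesenchyme 4, urothelium 5 or urothelium 7, 2 without mesenchyme 2, and 1 in the mean of probe sets or without the intensity trend. It was 3 without urothelium 8, 2 at the 2-fold threshold, 6 with array weights, and 5 without mesenchyme 1 or without both mesenchyme 1 and urothelium 5. With only genes above the median signal the count in mesenchyme was 0, because Cd44 fell below that filter and was not tested.

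Fgfr2, the receptor gene whose alternative exons IIIb and IIIc are the textbook example of this switch, had 30477, 8440 and 5198 in mesenchyme 1, 2 and 4, against 40622, 24795 and 17635 in urothelium 5, 7 and 8. The groups overlapped through mesenchyme 1, the highest array of its group. The difference was −1.24 ± 0.56 (adjusted p = 0.201 in limma), and −1.97 ± 0.37 without mesenchyme 1 (adjusted p = 0.00777), a fit chosen after the data had been seen. Its 3 probe sets differed by −1.24, −0.97 and 0.10, and 0 passed in limma over probe sets. Ctnnd1, the p120-catenin gene, differed by 0.38 ± 0.32 (adjusted p = 0.537), and its 3 probe sets lay between −0.54 and 0.38. Enah had 6 probe sets between −0.86 and 1.01, of which 0 passed. Probe sets of Slk were of both signs, from −1.69 to 0.41, with 2 of 5 past the test, both higher in urothelium. Over single probe sets 0 of 2 of Numb passed in limma (adjusted p = 0.0524 for the brightest), 0 of 3 of Ralgps2 (0.0501 for the brightest) and 1 of 4 of Cd44. The look at single probe sets of these genes was chosen after the data had been seen.

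Of 24 other splicing factors measured 2 were higher in mesenchyme and 1 in urothelium (median 0.0012), together 12.5% against 14.7% of all genes, and 7 had an unadjusted p under 0.05. Khdrbs3, which encodes the RNA-binding protein SLM2, had 2374 ± 215 in mesenchyme and 309 ± 100.2 in urothelium (2.81 ± 0.37). Rbfox2, a regulator of mesenchymal as well as epithelial exons, differed by 1.14 ± 0.35 with an adjusted p of 0.0496. Rbm47, an RNA-binding protein gene of epithelia, had 121 ± 64.4 in mesenchyme and 1025 ± 407 in urothelium (−2.68 ± 0.47). Leaving out mesenchyme 1, mesenchyme 2, urothelium 5, urothelium 7 or urothelium 8 brought the count in mesenchyme to 1. It was also 1 with both normalizations between arrays, the higher pseudocount, the mean of probe sets, and without both mesenchyme 1 and urothelium 5. The count in urothelium was 3 without mesenchyme 1 or without both mesenchyme 1 and urothelium 5, and 2 without mesenchyme 2 or in the mean of probe sets. Over the genes with a signal above the median, where dimmer genes were not tested, it was 0. Array weights gave counts of 3 in mesenchyme and 4 in urothelium.

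Partner proteins of the repressors were set against the 14.7% of all genes that passed in either direction. Of 13 measured corepressors and chromatin partners 0 passed in limma in either direction and 3 had an unadjusted p under 0.05. Ctbp1, a corepressor of Zeb proteins, differed by 0.18 ± 0.24, and the histone deacetylase gene Hdac2 by 0.37 ± 0.30. With array weights 1 was higher in mesenchyme and 2 in urothelium, and without urothelium 8 the counts were 1 and 0. Of 6 genes for the turnover of Snail and Twist proteins 0 passed in limma, and 0 had an unadjusted p under 0.05, while with array weights 1 was higher in urothelium. Among these, the ubiquitin ligase genes Fbxo11 and Fbxo45 differed by −0.10 ± 0.25 and −0.25 ± 0.31. Of 7 bHLH partners and Id inhibitors 1 passed: Id4, an inhibitor of bHLH factors, had 9263 ± 2591 in mesenchyme and 2501 ± 478 in urothelium (1.85 ± 0.30). That is 14.3% of the 7, near the share of all genes. With array weights, or without mesenchyme 1 and urothelium 5, 2 of the 7 were higher in mesenchyme.

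Other factors linked to the mesenchymal state differed in both directions. Of 10 measured, 4 were higher in mesenchyme and 2 in urothelium (median 0.90), against 8.99% and 5.75% of all genes. The homeobox gene Prrx1 and the bHLH gene Tcf21 differed by 4.48 ± 0.49 and 4.17 ± 0.37. Foxq1, a forkhead gene linked to the mesenchymal state in cancer cells, had 118 ± 69.7 in mesenchyme and 3064 ± 1562 in urothelium (−4.25 ± 0.49). The other member higher in urothelium was Sox4 (−1.02), and Foxc2 (3.09) and Lef1 (3.17) were the others higher in mesenchyme, all named after their values were seen. The count in urothelium was 1 without mesenchyme 2, mesenchyme 4, urothelium 5 or urothelium 7, with arrays centred on their medians, and in the mean of probe sets.

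Of 10 measured factors linked to the epithelial state, 8 were higher in urothelium and 0 in mesenchyme (median −4.95). Over all genes these shares were 5.75% and 8.99%. With array weights or without mesenchyme 1 and urothelium 5 the count in mesenchyme was 1. Trp63, the p63 gene of basal epithelia, differed by −8.24 ± 0.33, the pioneer factor gene Foxa1 by −7.92 ± 0.39 and the Ets factor gene Ehf by −6.53 ± 0.39. The differences of Ovol1 and Ovol2 were smaller than the median of that list, and the comparison was not tested.

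**Figure D3:**
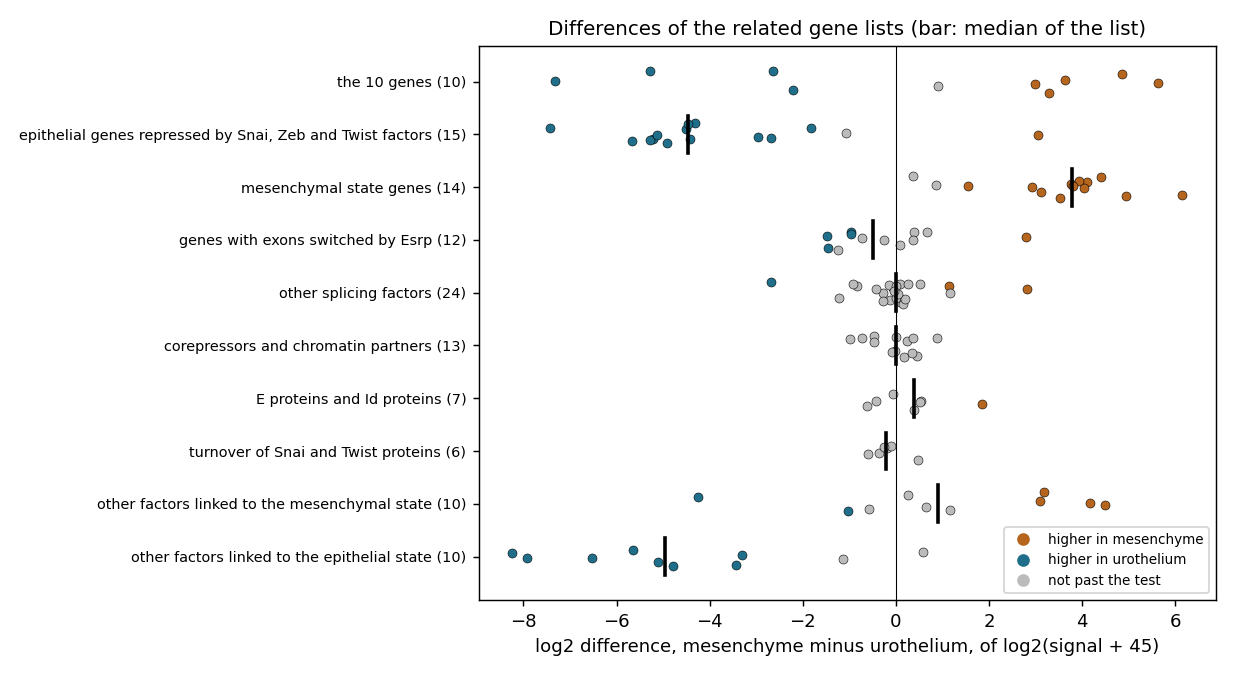
Log2 difference, mesenchyme minus urothelium, of the 10 genes (top row) and of the members of 9 related gene lists, 1 point a gene, with the number measured in brackets and a bar at the list's median. The lists of epithelial genes and factors lie mostly on the urothelium side and the mesenchymal state genes on the mesenchyme side, while splicing factors, corepressors and turnover genes gather near 0.

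The genes most like 4 of the regulators were sought among the 9096 genes brighter than the median gene, by the root mean square difference of centred log2 signals over the 6 arrays. Foxa1 (0.36), Sptlc3 (0.36) and Tfap2c (0.40) were nearest to Esrp1. Postn (0.19), Gbp2 (0.28) and Nid1 (0.32) were nearest to Snai2. Filip1 (0.24), Klf2 (0.26) and Pf4 (0.26) were nearest to Zeb2, and Sncaip (0.25), Angpt1 (0.29) and Wt1 (0.29) to Twist1. Klf2 is known for its high expression in endothelium, Pf4 in megakaryocytes and embryonic macrophages, and Wt1 in mesothelium. The 4 mesothelial markers went both ways: 2, Wt1 and Lrrn4, were higher in mesenchyme and 1, Msln, in urothelium (−5.16). Upk3b, the brightest of the 4, differed by −0.18 and did not pass, with means of 6460 in mesenchyme and 6227 in urothelium. It therefore weighs most in a sum of the 4. Their summed signals overlapped, at 4465 to 14316 in mesenchyme and 5026 to 12519 in urothelium. The part of such cells in these likenesses was not tested. These distances describe 6 arrays in 2 groups and carry no test.

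**Figure D4:**
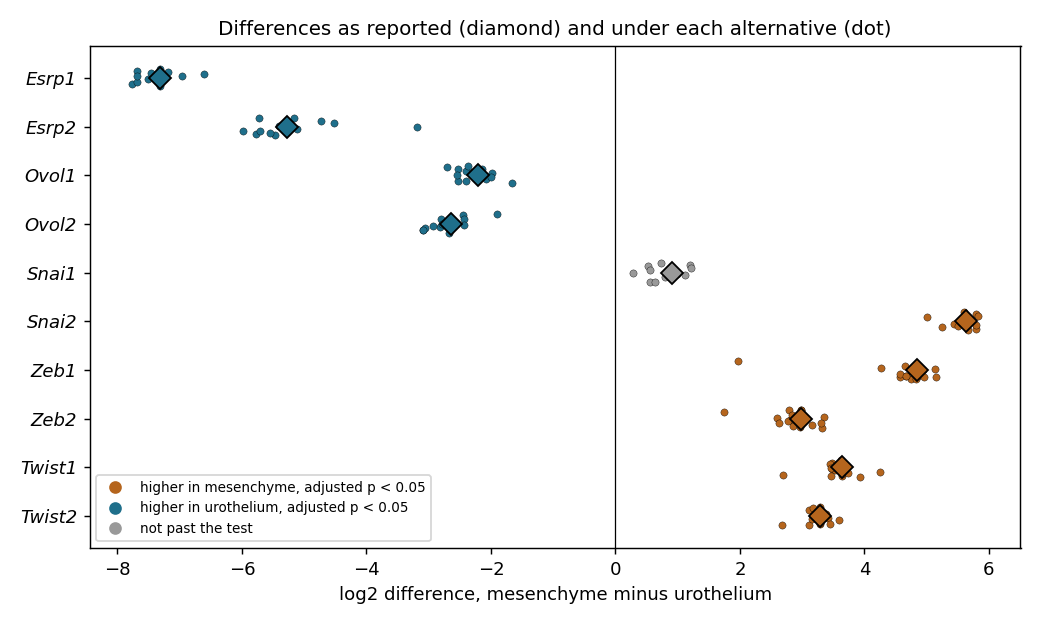
Log2 difference of each gene as reported (diamond) and under each alternative analysis (dots), coloured by direction where the adjusted p is under 0.05 and grey otherwise. No gene changes its direction or its side of the threshold, and the outlying dots of Esrp2, Zeb1 and Zeb2 are means over all their probe sets.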

How the data were processed

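Expression was measured in 3 bladder mesenchyme and 3 urothelium samples on Affymetrix MOE430 arrays. What the authors deposited is a linear intensity for each of 45101 probe sets, from 0.09 to 156866, made with the Affymetrix software GCOS per the submitters' processing notes. The summary algorithm is not given in the sources used here. Arrays shared a trimmed mean and were not rescaled, and such scaling hides any difference in the RNA content of cells. No detection calls were used, so a low signal is not called absent, and the number of arrays limits the precision.

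Of the probe sets, 64 controls were left out, 34945 had 1 gene symbol in the platform's annotation, 932 had several and 9160 had none. RefSeq matched 34741 of the 34945 by Entrez identifier and changed 0 symbols. Each gene was read from its brightest probe set by the mean of 6 arrays. Values were transformed as log2(signal + 45), 45 being the 25th percentile of all values, and fitted with limma 3.58.1 in R 4.3.3 (lmFit, eBayes with an intensity trend, Benjamini-Hochberg adjustment over 18193 genes, no filter). Probe sets were also fitted singly, over 45037. The fit was tested on simulated data. No batch, date or genome build for the arrays was given in the sources used here.

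The 10 genes, the related lists, markers and tests were chosen with earlier results of these data known. Named were all 10 genes, per related list the 3 genes past the test that differed most (or the 2 brightest where none passed), and the 3 genes most like Esrp1, Snai2, Zeb2 and Twist1. Of the related lists, Suv39h1, Klf8, Ovol3 and a further gene were not analysed here. No RefSeq promoter entry was used for Esrp1, Esrp2, Ovol1, Snai2, Zeb1, Cdh1, Llgl2, Pkp2, Pkp3 or Marveld3. Alternatives were pseudocounts of 1 and 179, array weights, quantile normalization, centring on medians, eBayes without the trend, only genes above the median signal, the mean of probe sets, single probe sets, a 2-fold threshold, and leaving out arrays.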

Additional observations from a re-analysis of the deposited data

How the results depend on the processing

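The 10 genes gave 5 calls higher in mesenchyme and 4 in urothelium. Each gene kept its direction and its side of the threshold under every alternative that gave it 1 value and tested it. With only genes above the median signal 2 were higher in urothelium, because Ovol1 and Ovol2 (and Snai1) fell below that filter and were not tested. Counted as probe sets, 9 were higher in mesenchyme, since a gene can have several. Among these single probe sets, 1 of 2 of Esrp2, 2 of 4 of Zeb1 and 2 of 5 of Zeb2 did not pass. Leaving out each array in turn gave 5 and 4 every time, with an adjusted p of at most 0.0449 for Ovol1 (without urothelium 7). Over all genes, array weights raised the counts to 3033 in mesenchyme and 2074 in urothelium, against 1636 and 1047. Leaving out 1 array gave 1150 to 1703 genes in mesenchyme and 652 to 1061 in urothelium, the last count being lowest without urothelium 7; the cause was not tested. Averaging all probe sets of a gene gave log2 differences of −3.19 for Esrp2, 1.97 for Zeb1 and 1.74 for Zeb2, since probe sets with smaller differences enter that mean. No paired analysis was possible because mesenchyme and urothelium share no replicate number. Signal over background could not be judged, and differences of dim probe sets such as those of Snai1 and of Ovol1 in mesenchyme are compressed.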

Other observations

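Several genes close to these regulators did not pass and are given as values. Snai3, the third Snail family gene, had mean signals of 180 in mesenchyme and 283 in urothelium, a log2 difference of −0.59 ± 0.44 (adjusted p = 0.479). Klf4, a factor of epithelial differentiation, had 14431 in mesenchyme and 9562 in urothelium (0.58 ± 0.26, adjusted p = 0.192). Elf3, an Ets factor of epithelia, had 454 in mesenchyme and 1041 in urothelium (−1.14 ± 0.44, adjusted p = 0.125). Among splicing factors, Celf2 had 6929 in mesenchyme and 14555 in urothelium (−1.23 ± 0.41, adjusted p = 0.0719), and Nova1 had 822 in mesenchyme and 348 in urothelium (1.17 ± 0.40, adjusted p = 0.0871). The E protein genes Tcf3, Tcf4 and Tcf12, whose products pair with Twist proteins, differed by 0.53 ± 0.37, 0.51 ± 0.32 and −0.06 ± 0.29, and none of the 3 passed in the limma fit. These genes were picked from the lists after their values were seen.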
